A study of Mus musculus with 6 samples.

Results

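The genes described are 10 immediate-early response genes, Fos, Fosb, Jun, Junb, Egr1, Egr2, Ier2, Arc, Nr4a1 and Dusp1. They were taken by name from the 22048 genes of the deposited RNA-Seq table, as a list chosen with earlier results of these data known, so that shares of the 10 set beside shares of all genes are descriptions. All 10 were found and all 10 passed the filter on low counts, as did 13952 genes in all. RNA came from neural stem and progenitor cells (NSC/NPCs) of the fetal hypothalamus, grown as neurospheres, floating clusters of dividing cells, and harvested at passage 1. Pregnant C57BL/6 mice aged 8 weeks of the high estradiol (HE) group were gavaged between E5.5 and E11.5 with estradiol valerate, an estrogen ester, at a daily 100 μg/kg. Control (NC) dams received corn oil alone over the same days, although the label of each NC sample reads untreated. Male fetuses were taken at E14.5, and all cultures of both groups were kept in medium with 10 ng/mL EGF, 10 ng/mL bFGF and B27. There were 3 NC samples (NC1, NC2, NC3) and 3 HE samples (HE1, HE2, HE3), each holding cells of 2 mice. The litters behind the samples are not given, so p-values measure only the spread between these samples. The cells were exposed in the womb and sequenced after culture, and culture as spheres favours cell types that survive and divide in this medium.

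Immediate-early genes are transcribed within minutes of a growth factor, a depolarization, a stress or the handling of tissue, and need no new protein to do so. The kinases ERK, p38 and PKA pass the signal to factors already bound at these genes, chiefly SRF with its ternary complex factors at the CArG box and CREB at the cyclic AMP response element (CRE). The mRNAs are short-lived, so their level follows the signal of the preceding minutes to hours. In the nervous system they are the usual readout of recent cell activation, and in cultured progenitors EGF and bFGF both feed the ERK pathway. Fos and Fosb pair with Jun and Junb to form the factor AP-1, Egr1 and Egr2 are zinc finger factors, and Nr4a1 is an orphan nuclear receptor. Ier2 is a small nuclear regulator, Arc is a cytoplasmic protein of the synapse, and Dusp1 is the phosphatase that switches MAP kinases off again.

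HE3 stood apart from the other 5 samples across the whole table. The reads counted on genes ranged from 16078675 in HE3 to 19137059 in NC2, so that 1 read on a gene of 1 kilobase was worth 0.0523 to 0.0622 RPKM (reads per kilobase of gene length, scaled to the reads of the library). HE3 held the lowest value of the 6 samples in 44.4% of the genes tested, whereas each other sample was lowest in 7.47% to 18.5%. It held the highest value in 24.5%, not far above the others, at 7.8% to 21.9%. With median-of-ratios scaling in place of library totals, HE3 was lowest in 33.4%. For this reason each comparison was made with all 3 HE samples and again with HE1 and HE2 alone, and HE3 is given by its values. The 10 neural progenitor markers were all above the filter, with a summed level of 2900 to 3600 RPKM in NC, 3230 in HE1, 2840 in HE2 and 4530 in HE3. Neuron markers summed to 49.1 to 79.3 RPKM over the 6 samples and oligodendrocyte lineage markers to 291 to 515. Astrocyte markers, several of which progenitors also express, summed to 1110 to 1910 RPKM. HE3 was lowest for 6 of the 8 oligodendrocyte lineage markers, and their median there was -1.17 against NC on the log2 scale. Olig1 and Olig2, at 312 and 182 RPKM in HE3, were highest there and carried the sum. HE3 was lowest for 2 of the 7 astrocyte markers, among them Gfap (195 RPKM, against 387 to 754 in the other samples). In such bulk samples fewer cells of a type and less RNA per cell cannot be told apart.

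The sequences just upstream of 5 of these genes are shown because most of the genes with a promoter window share a short element there, the CRE core. RefSeq promoter windows of GRCm38.p6, 250 bases before to 50 bases after a transcript start, were found for 7 of the 10 genes and not for Egr1, Ier2 and Arc. The CRE core, TGACG or CGTCA on the other strand, was in the windows of 6 of the 7, which are Fos, Fosb, Junb, Egr2, Nr4a1 and Dusp1, and in those of 26.2% of 17492 protein-coding genes. The full CRE, TGACGTCA, which contains an overlapping core on each strand, was in 1 of the 7, Dusp1, and in 2.54% of genes. The CArG box was in Egr2 and in 1.76% of genes. The EGR site, GCGNGGGCG or CGCCCNCGC, was in Fosb and Nr4a1 and in 8.51% of genes. The AP-1 site TGANTCA was in none of the 7 and in 8.12% of genes. Elements farther upstream and variants of these letters were not searched for, so a gene may have an element that was not found here. The 200 bases before the start are printed 5′ to 3′ on the gene's own strand, for the 4 genes with the largest gap between HE3 and the other HE samples and for Egr2. Capitals mark CRE cores and, in Egr2 only, also the CArG box (CCATATATGG). The Egr2 window printed holds both elements, which not all of its listed starts do. Another of its windows had a CArG box without a CRE core, and another had neither.
Fos, chr12:85473690-85473889, plus strand: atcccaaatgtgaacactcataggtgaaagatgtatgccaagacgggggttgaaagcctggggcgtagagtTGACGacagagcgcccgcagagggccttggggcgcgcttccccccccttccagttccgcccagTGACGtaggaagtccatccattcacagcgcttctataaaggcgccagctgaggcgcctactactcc
Fosb, chr7:19310046-19310245, minus strand: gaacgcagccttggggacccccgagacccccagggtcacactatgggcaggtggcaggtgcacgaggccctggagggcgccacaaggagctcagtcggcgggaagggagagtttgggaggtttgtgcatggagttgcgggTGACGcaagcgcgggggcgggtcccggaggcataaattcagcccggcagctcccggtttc
Nr4a1, chr15:101266646-101266845, plus strand: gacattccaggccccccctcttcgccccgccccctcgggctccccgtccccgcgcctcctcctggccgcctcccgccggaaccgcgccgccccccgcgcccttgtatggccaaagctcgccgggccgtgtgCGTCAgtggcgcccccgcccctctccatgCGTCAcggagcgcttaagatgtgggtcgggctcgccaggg
Dusp1, chr17:26508473-26508672, minus strand: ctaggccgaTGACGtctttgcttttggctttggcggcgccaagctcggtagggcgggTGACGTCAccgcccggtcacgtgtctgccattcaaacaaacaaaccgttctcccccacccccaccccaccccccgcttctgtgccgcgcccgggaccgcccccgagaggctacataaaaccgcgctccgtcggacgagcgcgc
Egr2, chr10:67537669-67537868, plus strand, 1 of several listed starts: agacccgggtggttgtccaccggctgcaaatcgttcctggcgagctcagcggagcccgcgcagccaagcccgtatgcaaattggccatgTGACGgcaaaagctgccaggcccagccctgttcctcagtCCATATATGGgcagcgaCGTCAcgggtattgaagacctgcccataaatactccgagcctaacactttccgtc

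Fos and Fosb, AP-1 subunits that resting cells make little of, were high in HE1 and HE2 and low in HE3. The RPKM of Fos was 94.8 in NC1, 127 in NC2 and 169 in NC3, against 231 in HE1, 276 in HE2 and 40.7 in HE3. HE1 and HE2 were thus above every NC sample and HE3 was below all of them, with 1540 reads in HE3 and 4186 to 12395 in the others. Over all 3 HE samples the mean was 183 ± 125 RPKM (SD, n = 3) against 130 ± 37.2 (SD, n = 3) in NC, and limma gave a log2 fold change of 0.12 (SE 0.69, adjusted p = 0.927). Without HE3 the log2 fold change of Fos was 0.99 (SE 0.24, unadjusted p = 0.00481, limma), a difference that did not pass the adjustment over all genes (adjusted p = 0.148, limma).

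Fosb, which encodes a close relative of Fos, was the least abundant of the 10 mRNAs in every NC sample and in HE3, though not in HE2, and had the widest range over the 6 samples. Its RPKM was 1.41 in NC1, 2.15 in NC2 and 6.63 in NC3, against 11.9 in HE1, 21.7 in HE2 and 0.349 in HE3. The order of the samples was the same as for Fos, with HE1 and HE2 above every NC sample and HE3 lowest. These values rested on 165, 257 and 784 reads in NC, 1332 and 2581 in HE1 and HE2, and 35 in HE3. The highest sample was 62.2 times the lowest, whereas within NC this ratio was 4.71. With all 3 HE samples the log2 fold change was 0.79 (SE 1.39, adjusted p = 0.745, limma), and without HE3 it was 2.51 (SE 0.61, unadjusted p = 0.0054, adjusted p = 0.149, limma).

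**Figure D1:**
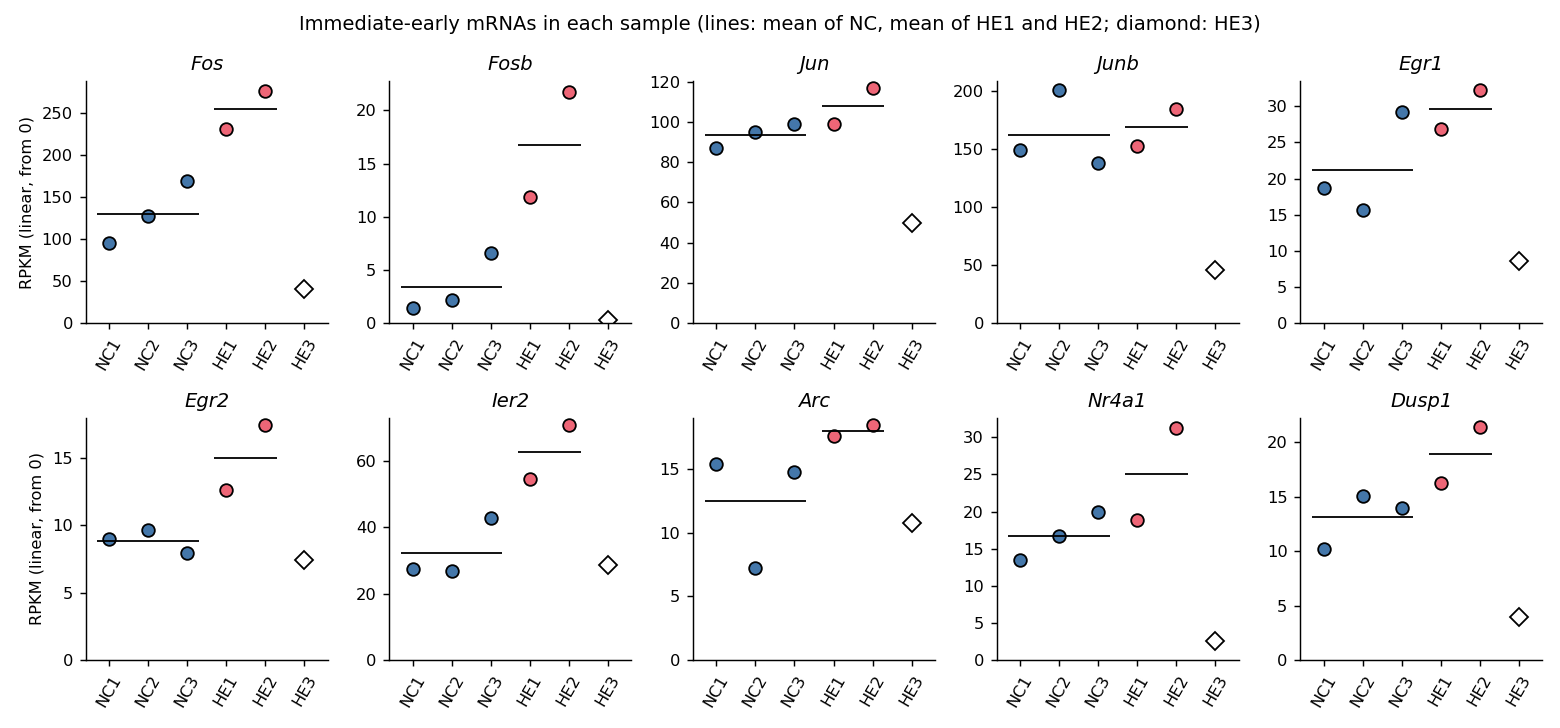
RPKM (linear axis from 0) of each of the 10 immediate-early mRNAs in the 3 NC samples (blue), in HE1 and HE2 (red) and in HE3 (open diamond), with lines at the mean of NC and the mean of HE1 and HE2. HE3 is the lowest sample for 8 of the 10 genes, and HE2 is the highest for 9 of the 10.

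The Jun partners were among the most abundant of the 10 and differed less between samples. Jun, the main dimer partner of Fos, was at 87.2, 95.1 and 98.8 RPKM in NC1, NC2 and NC3, and at 99.2, 117 and 50 in HE1, HE2 and HE3. HE1 lay only just above the highest NC sample, and HE3 was well below all others. The log2 fold change was -0.17 (SE 0.30, adjusted p = 0.748, limma) with all samples and 0.20 (SE 0.11, adjusted p = 0.349, limma) without HE3. Junb, which forms AP-1 dimers of lower activity than Jun, was at 149, 201 and 138 RPKM in NC1, NC2 and NC3. It was at 153, 185 and 45.6 RPKM in HE1, HE2 and HE3. Here HE1 and HE2 lay within the range of NC, and HE3 was again the lowest. Its log2 fold change was -0.55 (SE 0.50, adjusted p = 0.51, limma) with all samples and 0.07 (SE 0.18, adjusted p = 0.849, limma) without HE3.

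Summed over each pair, Fos and Fosb together stood at 0.408, 0.437 and 0.743 of Jun and Junb together in NC1, NC2 and NC3, on the RPKM scale. The ratio was 0.963 in HE1 and 0.987 in HE2, above every NC sample, and 0.43 in HE3, within the range of NC. Fosb made up 1.46% to 3.77% of the Fos and Fosb sum in NC, 4.9% in HE1, 7.27% in HE2 and 0.849% in HE3. HE3 thus stood apart from the other HE samples in these ratios as well as in the levels.

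Egr1 and Egr2, zinc finger factors that carry the early response to later target genes, were at intermediate levels. Egr1 was at 18.7 RPKM in NC1, 15.6 in NC2 and 29.2 in NC3, against 26.8 in HE1, 32.3 in HE2 and 8.64 in HE3. HE1 lay inside the range of NC for this gene, HE2 just above it and HE3 below it. The log2 fold change of Egr1 was -0.06 (SE 0.49, adjusted p = 0.945, limma) with all samples and 0.52 (SE 0.26, adjusted p = 0.303, limma) without HE3. Egr2, also known as a driver of hindbrain patterning and myelination, was at 9.0, 9.67 and 7.94 RPKM in NC1, NC2 and NC3. Its level was 12.6 RPKM in HE1, 17.5 in HE2 and 7.43 in HE3, so that HE3 was close to the lowest NC sample. NC samples were tightly grouped for Egr2 (8.87 ± 0.875 RPKM, SD, n = 3), and the log2 fold change without HE3 was 0.74 (SE 0.16, unadjusted p = 0.00331, adjusted p = 0.147, limma). With HE3 it was 0.41 (SE 0.29, adjusted p = 0.411, limma).

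Nr4a1 and Dusp1 had, after Fosb, some of the deepest values in HE3. The nuclear receptor gene Nr4a1 was at 13.5, 16.7 and 19.9 RPKM in NC1, NC2 and NC3, and at 18.9, 31.2 and 2.54 in HE1, HE2 and HE3. HE1 was within the range of NC, HE2 above it, and HE3, at 101 reads against 626 or more in every other sample, far below it. The log2 fold change was -0.52 (SE 0.83, adjusted p = 0.719, limma) with all samples and 0.55 (SE 0.24, adjusted p = 0.268, limma) without HE3. Dusp1, the MAP kinase phosphatase induced as feedback by the signal it ends, was at 10.2, 15.1 and 14.0 RPKM in NC1, NC2 and NC3. In HE1 it was at 16.3, in HE2 at 21.4 and in HE3 at 3.94 RPKM, with HE1 and HE2 above and HE3 below every NC sample. Its log2 fold change was -0.21 (SE 0.58, adjusted p = 0.845, limma) with all samples and 0.53 (SE 0.20, unadjusted p = 0.0336, adjusted p = 0.224, limma) without HE3. Dusp1 was past the unadjusted limit neither when NC1 was left out as well (adjusted p = 0.425, limma) nor when HE2 was (adjusted p = 0.567, limma).

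Ier2 and Arc were the only genes of the 10 for which HE3 was not the lowest sample. Ier2 was at 27.6, 26.7 and 42.7 RPKM in NC1, NC2 and NC3, against 54.5 in HE1, 70.9 in HE2 and 28.6 in HE3. HE1 and HE2 were above every NC sample, and HE3 lay within NC. With all samples Ier2 had the largest log2 fold change after Fosb, 0.60 (SE 0.34, adjusted p = 0.326, limma), and without HE3 it was 0.97 (SE 0.23, unadjusted p = 0.00423, adjusted p = 0.148, limma). Arc, whose mRNA is carried to active synapses in neurons, was at 15.4, 7.20 and 14.8 RPKM in NC1, NC2 and NC3. It was at 17.6 RPKM in HE1, 18.5 in HE2 and 10.8 in HE3, and NC2 was its lowest sample. The log2 fold change of Arc was 0.36 (SE 0.33, adjusted p = 0.521, limma) with all samples and 0.61 (SE 0.32, adjusted p = 0.333, limma) without HE3. NC2 decided much of it, since without NC2 these were 0.01 and 0.25.

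The comparison of 3 HE with 3 NC samples separated none of the 10 genes. No gene had all HE samples above all NC samples, a pattern of 14.8% of the genes tested, and none had all HE samples below, a pattern of 17.9%. Likewise 0 of the 10 were higher (8.68% of all genes) and 0 lower (11.8%) at an unadjusted p under 0.05 in limma. Over all genes, 2858 passed that looser limit, 0 (0%) were called at an adjusted p under 0.05 with a log2 fold change of at least 1, and the smallest adjusted p was 0.148 (limma), with 0 calls by voom on the read counts as well. The log2 fold changes of the 10 were positive for 5 and negative for 5, with a median of 0.028 against -0.059 over all genes tested. A weighting of samples by their agreement, which gave HE3 a weight of 0.158 against 0.852 to 2.87 for the others, brought 4 of the 10 (Fos, Fosb, Egr2 and Ier2) below an unadjusted p of 0.05 on the higher side, against 13.5% of all genes. In either direction 4117 of the 13952 genes passed that limit with the weights. Of the 10, only Ier2 was called in that fit (log2 fold change 1.04, adjusted p = 0.0396, limma), in which 268 genes (1.92%) were called.

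Without HE3 the mean levels of HE1 and HE2 were on the higher side of NC for every one of these genes. All 10 log2 fold changes were positive, with a median of 0.58 against -0.00018 over all genes tested. HE1 and HE2 were both above every NC sample for 7 of the 10 (Fos, Fosb, Jun, Egr2, Ier2, Arc and Dusp1), against 20.6% of all genes. They were both below NC for 0 of the 10, against 20.1%. An unadjusted p under 0.05 in limma was reached by 5 of the 10 on the higher side (Fos, Fosb, Egr2, Ier2 and Dusp1), against 9.35% of all genes, and by 0 on the lower side, against 10.5%. None of the 10, and none of the 13952 genes (0%), was called at the adjusted limit. Over all genes 2775 had an unadjusted p under 0.05, and the smallest adjusted p was 0.0981 (limma). The control sample NC3 had the highest NC level for Fos, Fosb, Jun, Egr1, Ier2 and Nr4a1. Without it 195 genes (1.4%) were called, among them 3 of the 10. These were Fosb with a log2 fold change of 3.13 (adjusted p = 0.0133, limma), Ier2 with 1.19 (adjusted p = 0.02, limma) and Fos with 1.20 (adjusted p = 0.0375, limma). That fit, with HE3 and NC3 both left out, was chosen after the data were seen. Removing the highest NC sample raises the fold changes of these 3 genes by itself. Leaving out NC1 or NC2 in place of NC3 gave 0 genes called.

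**Figure D2:**
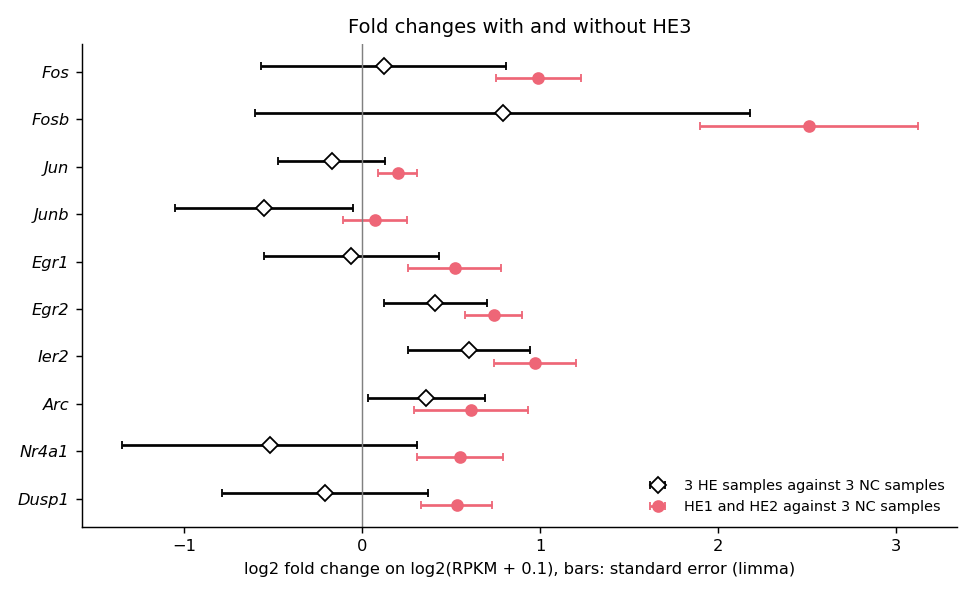
log2 fold change of each of the 10 mRNAs in HE against NC on the log2(RPKM + 0.1) scale, with all 3 HE samples (open diamonds) and with HE1 and HE2 only (red circles). Bars are standard errors from limma. Without HE3 all 10 points lie above 0 and the bars are shorter, and with HE3 5 points lie on each side of 0.

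HE2 had the highest level of the 6 samples for 9 of the 10 genes, all but Junb, against 10.1% of all genes tested. HE1 was close behind it for Arc (17.6 and 18.5 RPKM) and far behind for Fosb (11.9 and 21.7 RPKM). Summed over the 10 genes, the RPKM was 426 in NC1, 516 in NC2, 541 in NC3, against 643, 792 and 199 in HE1, HE2 and HE3. This sum is carried mainly by Fos, Jun and Junb.

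HE3 lay below the mean of HE1 and HE2 for all 10 genes, as it did for 62.0% of the genes tested. It was the lowest of the 6 samples for 8 of the 10, against the 44.4% given above, and the highest for 0 of the 10, against 24.5%. The gap on the log2 scale was at least 1 for 8 of the 10, all but Egr2 and Arc, against 9.95% of all genes. Its median over the 10 genes was -1.82, and over all genes -0.16. Fosb had the lowest difference of all 13952 genes, at -5.17, a 48.2-fold ratio of the mean of HE1 and HE2 to HE3 on the RPKM scale. Nr4a1 followed with -3.21 and a 9.86-fold ratio, Fos with -2.63 and a 6.23-fold ratio, and Dusp1 with -2.22 and a 4.79-fold ratio. Of all genes tested, 0.115% had a lower difference than Nr4a1, 0.358% than Fos and 0.846% than Dusp1. The others were between -1.89 for Junb and -0.73 for Arc. These are distances of a single sample, and no test was made of them.

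Against the mean of NC, HE3 had a median difference of -1.43 on the log2 scale over the 10 genes, compared with -0.17 over all genes. The difference was largest for Fosb (-2.66) and Nr4a1 (-2.65), and it was -1.81 for Junb, -1.69 for Dusp1 and -1.64 for Fos. For Egr2 (-0.25), Ier2 (-0.14) and Arc (-0.13) it was near that of all genes. Both features at once, HE1 and HE2 above every NC sample and HE3 lowest of the 6, were seen for 5 of the 10 (Fos, Fosb, Jun, Egr2 and Dusp1), against 3.25% of all genes. With median-of-ratios scaling, which moved the median of all genes in HE3 against NC from -0.17 to 0.00, HE3 was below the mean of HE1 and HE2 for all 10 (48.5% of all genes) and at least 1 log2 unit below it for 6 of the 10 (7.33% of all genes). It was then lowest for 7 of the 10 (33.4% of all genes), as Egr2 left the group. The double pattern was then seen for 3 of the 10, against 2.01% of all genes.

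**Figure D3:**
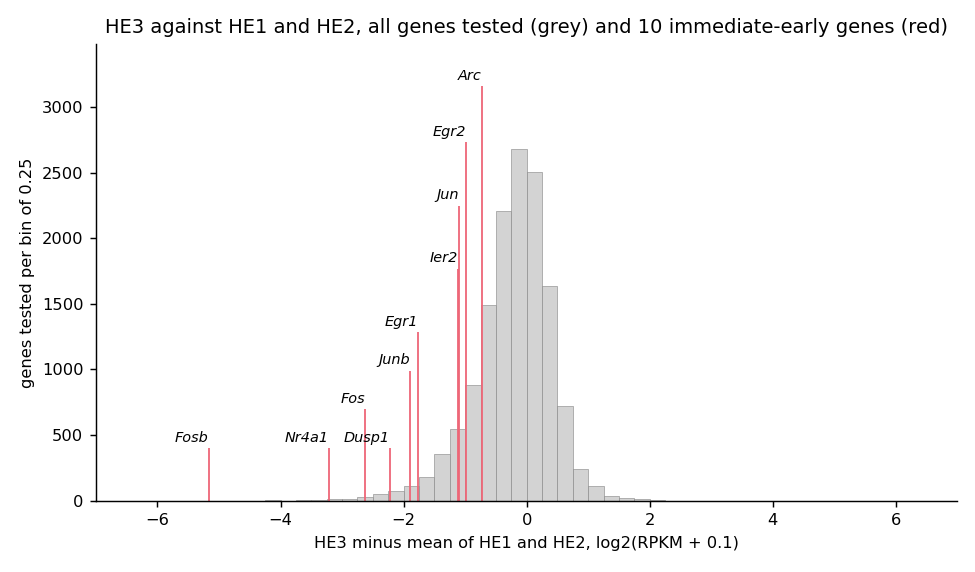
Histogram of the difference between HE3 and the mean of HE1 and HE2 on the log2(RPKM + 0.1) scale over the 13952 genes tested (grey, bins of 0.25), with the 10 immediate-early genes as red lines whose height only separates the names. All 10 lie below the median of all genes at -0.16, from -0.73 for Arc to -5.17 for Fosb at the far left.

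Ordered by mean RPKM in NC, which is a level per length of transcript, the genes were Junb (162 ± 33.6, SD, n = 3), Fos (130 ± 37.2), Jun (93.7 ± 5.95), Ier2 (32.3 ± 8.97), Egr1 (21.2 ± 7.10), Nr4a1 (16.7 ± 3.22), Dusp1 (13.1 ± 2.56), Arc (12.5 ± 4.57), Egr2 (8.87 ± 0.875) and Fosb (3.40 ± 2.82). The range of Fos over the NC samples overlapped with that of Junb and with that of Jun, and so did each neighbouring pair from Ier2 to Egr2 in this order. Jun and Ier2 did not overlap, nor did Egr2 and Fosb. In HE1 and HE2 Fos took the first place, ahead of Junb and Jun, whereas in HE3 Jun was first at 50 RPKM, followed by Junb at 45.6 and Fos at 40.7. The ratio of the highest to the lowest of the 6 samples was 12.3 for Nr4a1, 6.79 for Fos and 5.44 for Dusp1, and between 2.33 and 4.4 for the rest apart from Fosb.

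Genes of the same pathway outside the 10 did not all share these levels. Of the other AP-1 subunits and small Maf partners, 10 of 11 were tested, and HE3 was the lowest sample for all 10 of them. None was higher and 2 were lower in HE at an unadjusted p under 0.05, in both fits. These were Mafg and Fosl2, and none of the list was called. Fosl2, a late AP-1 subunit, was at 18.7, 16 and 14.1 RPKM in NC1, NC2 and NC3, against 10.7, 10.4 and 3.49 in HE1, HE2 and HE3 (log2 fold change -1.13, SE 0.41, adjusted p = 0.215, limma). HE1 and HE2 were thus below NC for this relative of Fos, the opposite side to Fos itself. Mafg was at 16.6 to 21.5 RPKM in NC and at 13.4, 13.2 and 10.9 in HE1, HE2 and HE3, and the next genes by p, Jdp2 and Mafk, had adjusted p-values of 0.28 and 0.285 (limma).

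All 6 other genes of the EGR and NR4A families and their NAB corepressors were tested, with 0 higher and 1 lower (Nr4a2) at an unadjusted p under 0.05 over all samples. Without HE3, 2 were higher (Egr3 and Egr4) and 1 lower. Egr4 was at 0.769, 1.36 and 1.45 RPKM in NC1, NC2 and NC3, against 2.16, 5.83 and 1.19 in HE1, HE2 and HE3 (log2 fold change without HE3 1.55, SE 0.44, adjusted p = 0.167, limma). Nr4a2 and Nr4a3 encode the close relatives of Nr4a1. Nr4a2 was at 1.06 to 1.21 RPKM in NC and at 0.633, 0.84 and 0.49 in HE1, HE2 and HE3. Nr4a3 was at 0.529 to 0.934 RPKM in NC, 0.494 in HE1, 0.701 in HE2 and 0.0935 in HE3, the last from 9 reads. Nab2, a repressor of EGR factors that they induce, was between 19.6 and 25.9 RPKM in all samples. Egr3, chosen after its values were seen, was at 6.25 to 6.75 RPKM in NC, 8.16 in HE1, 10.8 in HE2 and 1.71 in HE3, the order seen for Fos.

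Among 16 other dual-specificity phosphatases and ERK feedback inhibitors, 3 were higher and 4 lower over all samples at an unadjusted p under 0.05, and none was called. HE3 was the lowest sample for 9 of the 16 and the highest for 6, and its median difference from NC was -0.47 on the log2 scale. Dusp6, the phosphatase specific for ERK and a usual readout of its activity, was at 50.7, 41.2 and 56.5 RPKM in NC1, NC2 and NC3, against 73.0, 93.6 and 162 in HE1, HE2 and HE3 (log2 fold change 1.08, SE 0.29, adjusted p = 0.195, limma). All 3 HE samples were above NC, and HE3 was the highest, the reverse of its place for Dusp1. Dusp7 followed the same order, from 5.11 to 6.26 RPKM in NC to 6.51, 7.95 and 9.41 in HE1, HE2 and HE3. Spry1, an ERK pathway inhibitor chosen after its values were seen, was also highest in HE3 (36.0 RPKM, against 15.9 to 24.4 in the other samples). Dusp16, which acts on JNK and p38, and Spred3 were lowest in HE3, at 3.25 and 3.23 RPKM, with every HE sample below NC. Errfi1, an inhibitor of the EGF receptor chosen after its values were seen, was at 6.53 to 7.13 RPKM in NC, 10.6 in HE1, 10.5 in HE2 and 4.20 in HE3.

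Of 23 kinases and factors upstream of these genes, all tested, 0 were higher over all samples at an unadjusted p under 0.05, against 8.68% of all genes. On the lower side were 2, Rps6ka1 and Atf1, against 11.8% of all genes. HE3 was the lowest sample for 11 of the 23, against 44.4% of all genes. Rps6ka1, a kinase below ERK, was at 22.2 to 27.7 RPKM in NC and at 18.4, 20.2 and 18.9 in HE1, HE2 and HE3 (log2 fold change -0.39, SE 0.12, adjusted p = 0.195, limma). Atf1, a relative of CREB, was at 5.40 to 6.48 RPKM in NC and at 4.12, 5.16 and 4.0 in HE1, HE2 and HE3, and the coactivators Crtc3 and Crtc1 had adjusted p-values of 0.257 and 0.264 (limma). Srf itself, named after its values were seen, was between 13.1 and 16.5 RPKM in the 6 samples.

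Of 38 other immediate-early genes listed, 37 were tested and Cebpd was not matched. HE3 was the lowest sample for 29 of the 37, and the median difference of HE3 from NC was -1.08 on the log2 scale, so the low level in HE3 was not particular to the 10. In HE1 and HE2, in contrast, the median of this list differed from NC by -0.13 and -0.07, whereas that of the 10 genes was 0.45 and 0.82. Over all samples 3 were higher and 6 lower at an unadjusted p under 0.05, and without HE3 6 were higher and 8 lower. Ier3, a stress-induced survival gene, was at 166, 188 and 136 RPKM in NC1, NC2 and NC3 and at 112, 92.9 and 92.2 in HE1, HE2 and HE3 (log2 fold change -0.71, SE 0.16, adjusted p = 0.195, limma). Plk2, a Polo-like kinase, was on the other side, at 25.1 to 35.5 RPKM in NC and at 40.9, 48.3 and 54.0 in HE1, HE2 and HE3 (log2 fold change 0.68, SE 0.16, adjusted p = 0.195, limma). Klf10 was at 48.1 to 52.2 RPKM in NC and at 67.1, 68.5 and 61.1 in HE1, HE2 and HE3. The matricellular gene Ccn2 was at 0.867 to 1.88 RPKM in NC and at 0.566, 0.806 and 0.348 in HE1, HE2 and HE3.

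The genes of this list that followed the order of Fos were Ccn1, Zfp36 and Klf4, which were chosen after their values were seen. Ccn1, a growth factor-induced matricellular gene, was at 20.8 to 24.7 RPKM in NC, 36.2 in HE1, 43.6 in HE2 and 5.27 in HE3. Zfp36, whose protein destabilizes AU-rich mRNAs, was at 5.80 to 6.57 RPKM in NC, 8.87 in HE1, 11.8 in HE2 and 1.25 in HE3. For Klf4 the range in NC was 3.32 to 4.47 RPKM, with 5.84 in HE1, 8.32 in HE2 and 2.12 in HE3.

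Neuronal activity genes, which depolarization induces in neurons, had no common direction. Of 10 tested of 11, 1 was higher and 2 were lower over all samples at an unadjusted p under 0.05, and HE3 was lowest for 3. Vgf, a secreted neuropeptide precursor, was at 15.3, 14.3 and 16.1 RPKM in NC1, NC2 and NC3 and at 5.94, 2.98 and 1.40 in HE1, HE2 and HE3 (log2 fold change -2.34, SE 0.45, adjusted p = 0.195, limma). Nptx1 was at 4.35 to 7.49 RPKM in NC and at 8.03 RPKM in HE1 and higher in HE2 and HE3, while Scg2 and Rasgrp1 had log2 fold changes of -0.74 and -0.41. Npas4, a gene largely restricted to depolarized neurons and chosen after its values were seen, was at or below 0.177 RPKM in every sample, from 0 to 11 reads, and was not tested.

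The heat shock list, which mixes constitutive genes such as Hspa8 with genes that dissociation of tissue induces, had no common direction in HE3. Its median difference from NC there was 0.07 on the log2 scale. Of 12 tested, 5 were higher and 1 lower over all samples at an unadjusted p under 0.05. HE3 was lowest for 4 (Bag3, Hspa1a, Hspa1b and Hspb1) and highest for 5. Those 4 lay at -1.4, -2.74, -2.13 and -2.17 against the mean of NC on the log2 scale. Hspa8, the constitutive Hsp70, was at 424 to 531 RPKM in NC and at 645, 609 and 954 in HE1, HE2 and HE3 (adjusted p = 0.214, limma). Hspd1 and Hspe1, the mitochondrial chaperonin pair, were also above NC in all HE samples, with log2 fold changes of 0.56 and 0.45. Bag3, an inducible cochaperone, was at 6.12 to 7.90 RPKM in NC and at 5.14, 4.44 and 2.57 in HE1, HE2 and HE3. The inducible Hsp70 gene Hspa1a, chosen after its values were seen, was at 3.73 to 7.16 RPKM in 5 samples and 0.734 in HE3. Its near-identical copy Hspa1b was at 6.73 to 15.4 RPKM in those 5 and 2.02 in HE3, and reads could be split between the pair. Hspb1, also chosen after its values were seen, was at 25.3 to 45.0 RPKM in those 5 and 8.32 in HE3.

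**Figure D4:**
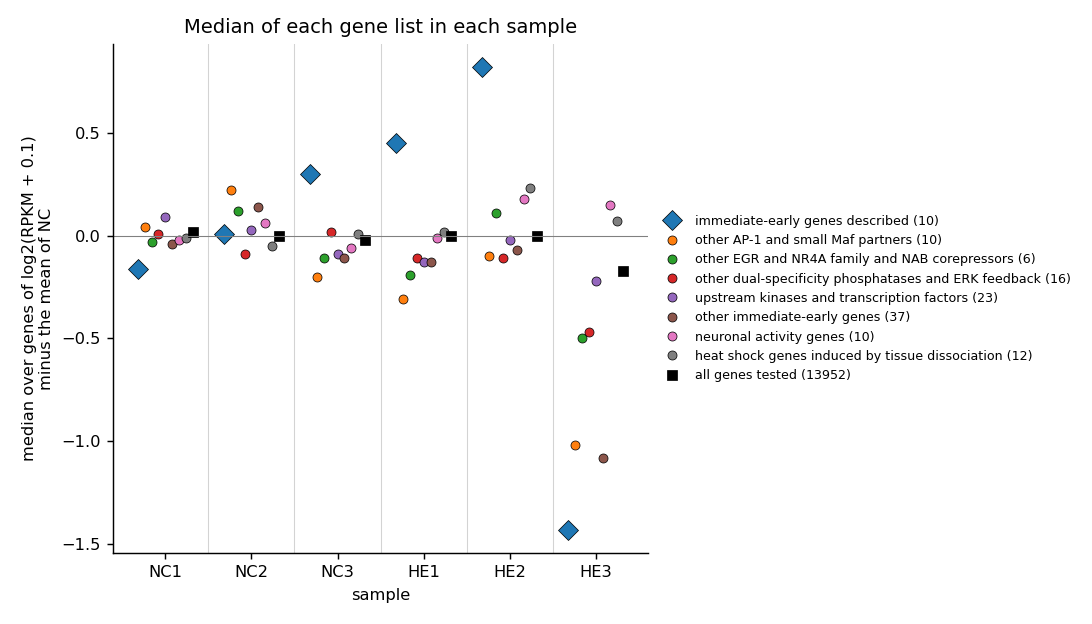
Median over the genes of each list of log2(RPKM + 0.1) minus the mean of NC, in each of the 6 samples, with the number of genes tested in the legend; points within a sample are spread sideways for legibility. The 10 immediate-early genes (blue diamonds) are at 0.45 in HE1, 0.82 in HE2 and -1.43 in HE3, and the list of other immediate-early genes is at -1.08 in HE3 and near 0 elsewhere.

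The genes most like the mean profile of the 10 over the 6 samples, by the root mean square difference of centred log2(RPKM + 0.1) values among 12331 genes, were Gm21897 (0.168), Gramd2 (0.204), Rara (0.212), Gm6483 (0.224) and Slc1a1 (0.23). Of the 10 themselves Egr1 (0.201) and Fos (0.216) were nearest to their mean and Fosb (1.2) farthest. Rara, the retinoic acid receptor alpha, was at 7.23 to 8.98 RPKM in NC, 9.62 in HE1, 12.5 in HE2 and 3.02 in HE3. The genes nearest to Fos alone were Gm21897 (0.161), Cdkn1c (0.184), Gm10800 (0.242), Slc1a1 (0.251) and Neu4 (0.286). Cdkn1c, an inhibitor of the cell cycle, was at 7.40 to 10.3 RPKM in NC, 15.3 in HE1, 16.9 in HE2 and 2.53 in HE3. Within the 10, Dusp1 (0.268), Egr1 (0.367) and Nr4a1 (0.402) were nearest to Fos. These are descriptions over samples that share their depth and culture, and the predicted genes named Gm may share reads with close copies.

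Markers of other cell types differed between the same samples. Summed over 9 mesenchymal and pericyte markers, of which 8 were tested, the level was 34.2 to 99.4 RPKM in NC, 191 in HE1, 157 in HE2 and 86.3 in HE3, so that HE1 and HE2 were above NC and HE3 within it. At an unadjusted p under 0.05, 3 of them were higher over all samples and 6 without HE3. Col3a1, the fibrillar collagen with the highest level, was at 12.2 to 43.3 RPKM in NC, 92.7 in HE1, 71.6 in HE2 and 45.7 in HE3. Summed over 10 microglia and macrophage markers, of which 5 were tested, the level was 1.01 to 2.06 RPKM in NC, 13.9 in HE1, 4.99 in HE2 and 34.8 in HE3. Lyz2 made up most of the sum in each HE sample, at 9.44, 2.98 and 25.4 RPKM in HE1, HE2 and HE3. The markers did not all follow the sum. C1qa and Ptprc were at 0 in NC1 and NC2, whereas Aif1 was at 0.0345 to 0.243 RPKM in NC and 0.0684 to 0.219 in HE, and P2ry12 had its lowest level, 0.147 RPKM, in HE3. These 4 markers were chosen after their values were seen. The 8 endothelial markers summed to 3.49 to 5.21 RPKM in NC and to 6.85, 6.61 and 5.31 in HE1, HE2 and HE3. The progenitor markers had a median difference from NC of -0.25 in HE1, -0.21 in HE2 and -0.88 in HE3, although their sum, carried by a few abundant genes, was highest in HE3. The part of these cell types in the levels of the immediate-early genes was not tested.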

How the data were processed

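RNA-Seq of 3 NC and 3 HE samples was used, grouped by their titles. Per the labels and the study's methods, the authors prepared TruSeq libraries, processed the reads with CASAVA 1.7 and aligned them with TopHat2 to mm10. The study describes strand-specific libraries. The aligner's version, the counting tool, its strand setting and the gene annotation are not given in the sources used here, so overlapping and antisense genes may share reads. The deposited table holds, per gene, the read count, which the authors did not normalize, and the RPKM, which the authors derived from count, length and library total (matched here to within 4.99e-07). The larger read counts are written with commas and were not accepted as a count unit for this work, so RPKM was tested. With the commas removed, the counts served for the filter, the depth and a voom alternative.

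Of 22048 Ensembl identifiers, 21781 matched a gene symbol. Genes with the equivalent of 10 reads per median-sized library in 3 or more samples, and 15 reads over all samples, were tested (13952 genes). HE was compared with NC on log2(RPKM + 0.1) by limma 3.58.1 (R 4.3.3; trended variance, no covariates), and Benjamini-Hochberg adjustment covered all genes tested. A fold change on this scale understates the change of low genes. Calls needed a log2 fold change of 1 or more either way at an adjusted p under 0.05. Depth was 16078675 to 19137059 reads per sample, which limits precision for counting error only.

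The 10 genes and all lists were chosen with earlier results of these data known. All 10 genes are given in full. From each other list the text names at most 4 genes, those with the smallest p over all samples, and says so where others were picked after their values were seen. Likeness was measured over genes whose mean CPM over all samples had a log2 of at least 1, and the 5 nearest are named. Alternatives were a pseudocount of 1, median-of-ratios scaling, other filters, voom, sample weights, the replicate number as a block and each sample left out. Coordinates and promoter windows are RefSeq's for GRCm38.p6. Long non-coding transcripts were not analysed here.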

Additional observations from a re-analysis of the deposited data

How the results depend on the processing

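Genes are counted here where called at the adjusted limit with the fold cutoff, and the 10 where at an unadjusted p under 0.05. In HE against NC over 6 samples, 0 genes were called and 0 of the 10 passed the unadjusted limit, and this held under a pseudocount of 1, median-of-ratios scaling, both other filters, voom and the replicate block. Sample weights gave 268 genes called (1 of the 10 among them, Ier2) and 4 of the 10 at the unadjusted limit, and leaving out each sample gave 0 to 103 genes called (103 without NC3) and 0 to 5 of the 10 at the unadjusted limit (5 without HE3). Of the 13952 genes tested, 4117 passed that limit with the weights, and 1342 to 3107 with single samples left out (2775 without HE3). With sample weights the log2 fold changes turned positive for Jun (0.24), Junb (0.11), Egr1 (0.51), Nr4a1 (0.66) and Dusp1 (0.63). Leaving out single samples, the ranges that crossed 0 were -0.38 to 0.99 for Fos, -0.29 to 2.51 for Fosb, -0.41 to 0.20 for Jun, -0.94 to 0.07 for Junb, -0.42 to 0.52 for Egr1, -1.23 to 0.55 for Nr4a1 and -0.68 to 0.53 for Dusp1. Egr2, Ier2 and Arc were positive under every setting run, but Arc was at 0.01 without NC2. For HE1 and HE2 against NC, the alternatives without a block and with all 5 samples gave 0 genes called and 4 to 6 of the 10 at the unadjusted limit. Over all genes, whose number depended on the filter, 2653 to 3229 passed the unadjusted limit in these alternatives. Leaving out each sample gave 0 to 195 genes called (195 without NC3, with 3 of the 10 among them) and 4 to 7 of the 10 at the unadjusted limit. Over all genes 1598 to 3138 passed the unadjusted limit in those fits. Junb ranged from -0.06 to 0.24 there, and the other 9 stayed positive. The alternatives of leaving out samples and the block for HE1 and HE2 were chosen after seeing the data. NC and HE samples share the numbers 1 to 3, with no common origin given. The deviations of same-number samples from their group means correlated at 0.156, 0.0869 and 0.0603, and those of different numbers at -0.0764 to -0.00114. Every sample thus correlated best with its own number. Deviations from a group mean cancel within the group, so these correlations depend on each other. They are low and give a weak hint from the data only. With the replicate block, HE1 and HE2 against NC gave 470 genes called, with Fosb, Ier2 and Fos among them. In that fit 8 of the 10 were at the unadjusted limit, as were 3275 of the 13952 genes tested. Junb was at -0.03 there. NC3, alone in its block, then has no bearing on the fold changes. The blocked fit of 5 samples leaves 1 residual degree of freedom per gene. Its p-values thus rest mainly on the variance estimated over all genes and on a pairing that the labels do not give. The cause of these shifts was not tested. Genes near 1 read, such as Npas4, are limited by depth.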
